A study of Mus musculus with 12 samples.

Results

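Ly6g, Fcgr1 and Ptprc encode the surface proteins by which the cells of this study were sorted, and all 3 are among the 11911 genes of the deposited expression table. They were chosen by gene symbol because the sort used their products. The data are RNA-seq read counts of neutrophils from the left ventricle of the mouse heart, in 12 libraries of 800 sorted cells each. Of these, 6 libraries carry the genotype label control (numbered 2, 6, 7, 8, 11 and 12) and 6 carry the genotype label LOY, named in the series title as hematopoietic loss of the Y chromosome (3, 4, 5, 10, 14 and 15). The treatment label reads control throughout, and every title names a control BMT, an abbreviation in common use for bone marrow transplantation. Cells of both groups were taken as positive for CD45.2, Ly6G and a red fluorescent protein (RFP) and negative for CD64. How the Y chromosome was lost, what carries the RFP gene, and the age and sex of the mice are not given in the sources used here. While the labels number the libraries, they do not say that each came from its own mouse. The spread that the p-values measure is therefore that between libraries, and may be technical in part.

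Ly6G is a small protein held in the membrane by a lipid (GPI) anchor, and it is the surface marker most used to identify mouse neutrophils. CD64, the product of Fcgr1, is the high-affinity receptor for the Fc part of IgG and is used in the mouse heart to mark macrophages. CD45, the product of Ptprc, is a tyrosine phosphatase that spans the membrane of all nucleated blood cells and sets the activity of Src family kinases. CD45.1 and CD45.2 are alleles of this gene that differ between mouse strains and tell donor from host blood cells after a transplant. Counts per gene do not separate these alleles, nor the splice forms of CD45. A protein sort selects protein on the surface, and its transcript need not be abundant in the same cell.

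Ly6g belongs to a family of close relatives on chromosome 15, so its reads could be shared with theirs. The coding sequence of Ly6g is therefore shown with that of Ly6a, which encodes the stem cell and endothelial antigen Sca-1. Among Ly6a, Ly6c1, Ly6c2, Ly6d, Ly6e and Ly6i, it was the most similar, with 83.1% identical positions over 402 aligned bases. Bases 1 to 300 of each are given, from the start codon, in the GENCODE M21 annotation of GRCm38, and capitals mark the 60 bases at which they differ.
Ly6g: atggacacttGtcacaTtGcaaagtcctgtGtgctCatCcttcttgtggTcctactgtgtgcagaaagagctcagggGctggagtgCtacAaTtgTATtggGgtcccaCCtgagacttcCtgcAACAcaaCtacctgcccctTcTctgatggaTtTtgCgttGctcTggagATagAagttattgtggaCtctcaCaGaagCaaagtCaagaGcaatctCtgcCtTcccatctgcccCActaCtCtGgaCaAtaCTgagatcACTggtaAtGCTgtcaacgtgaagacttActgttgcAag
Ly6a: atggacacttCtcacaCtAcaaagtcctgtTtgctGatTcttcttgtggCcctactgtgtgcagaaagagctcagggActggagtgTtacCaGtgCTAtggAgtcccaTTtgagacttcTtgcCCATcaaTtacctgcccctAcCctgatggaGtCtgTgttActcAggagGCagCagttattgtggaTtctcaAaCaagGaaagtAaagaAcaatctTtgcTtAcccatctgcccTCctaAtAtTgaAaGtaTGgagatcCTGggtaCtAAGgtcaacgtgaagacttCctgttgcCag
The capitals are spread along the bases shown. Over all 402 aligned bases, 334 were identical, with no more than 35 in a row. Ly6i, a neighbouring Ly6 gene, is identical to Ly6g over a longer run of 51 bases. Of the 892 windows of 50 bases in the Ly6g transcript, 4 (0.448%) also occur in a transcript of another gene, and of its windows of 100 bases none do. Neither the Fcgr1 transcript of 2589 bases nor the Ptprc transcript of 5074 bases shared a window of 50 or 100 bases with a transcript of another gene. Only 1 transcript per gene was searched, while the annotated exons of Ptprc cover 18313 bases. No other annotated gene, on either strand, overlaps an exon of the 3 genes. These are exact matches to annotated transcripts, and reads that carry mismatches were not examined.

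The libraries held 6767108 to 12561174 reads in the genes of the table and 7539 to 9463 genes above 0. Values are given as normalised reads, the reads of a gene divided by 1 factor per library. The summed level of the 3 Y-linked genes Ddx3y, Eif2s3y and Uty lay between 1032 and 1972 in every control library. It was at most 59.3 in a LOY library, and 4 LOY libraries had none. The cell type label was set beside 25 genes that mark mature neutrophils, of which the deposited table holds 24, all but Stfa3. They include S100a9, which encodes an abundant calcium-binding protein of these cells, and Cxcr2, the chemokine receptor that guides these cells. All 24 stood at 10 or more normalised reads in each of the 12 libraries. The list was chosen with earlier results of these data known, so this is no independent check of the label. None of the granule genes Elane, Mpo, Prtn3, Ctsg and Olfm4, which immature neutrophils transcribe, is among the genes of the deposited table. Other listed granule genes were read unevenly. Control 6 held 6789 normalised reads of Ngp, 3919 of Ltf, 2076 of Camp and 1243 of Chil3, and LOY 10 held 11882 of Chil3. Each of these genes was also below 10 in several libraries.

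Ly6g (ENSMUSG00000022582, GRCm38 chr15:75155240-75159126, plus strand), the gene of the antigen on which the sort turned, was read well in most libraries and hardly at all in the others. In the control libraries it stood at 1039 normalised reads in control 2, 772 in control 8, 344 in control 6, 273 in control 11, 186 in control 7 and 0.925 in control 12. In the LOY libraries it stood at 619 in LOY 15, 272 in LOY 5, 212 in LOY 14, 5.82 in LOY 4, 0.706 in LOY 10 and 0 in LOY 3. The 12 libraries thus fell into 8 at 186 or more and 4 at 5.82 or less, with no value between, and the groups overlapped. Behind the low values lie 5 reads in LOY 4, 1 read each in control 12 and LOY 10, and none in LOY 3, where a count of 0 allows up to 2.11 normalised reads by counting error alone. In these same 4 libraries, all from cells gated as Ly6G positive, S100a9 stood between 52749 and 150411 normalised reads. It ran from 62518 to 259274 in the other 8, and LOY 3 (52749) and LOY 10 (57532) were the lowest of the 12. These libraries also had the lowest sums of the listed mature neutrophil genes, 489777 and 492410, with control 11 next at 503985. Control 12 and LOY 4, also with little Ly6g, had sums of 797563 and 796929, within the range of the libraries with more Ly6g. The means of Ly6g were 436 ± 391 normalised reads for control and 185 ± 244 for LOY libraries (SD, n = 6 per group).

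**Figure D1:**
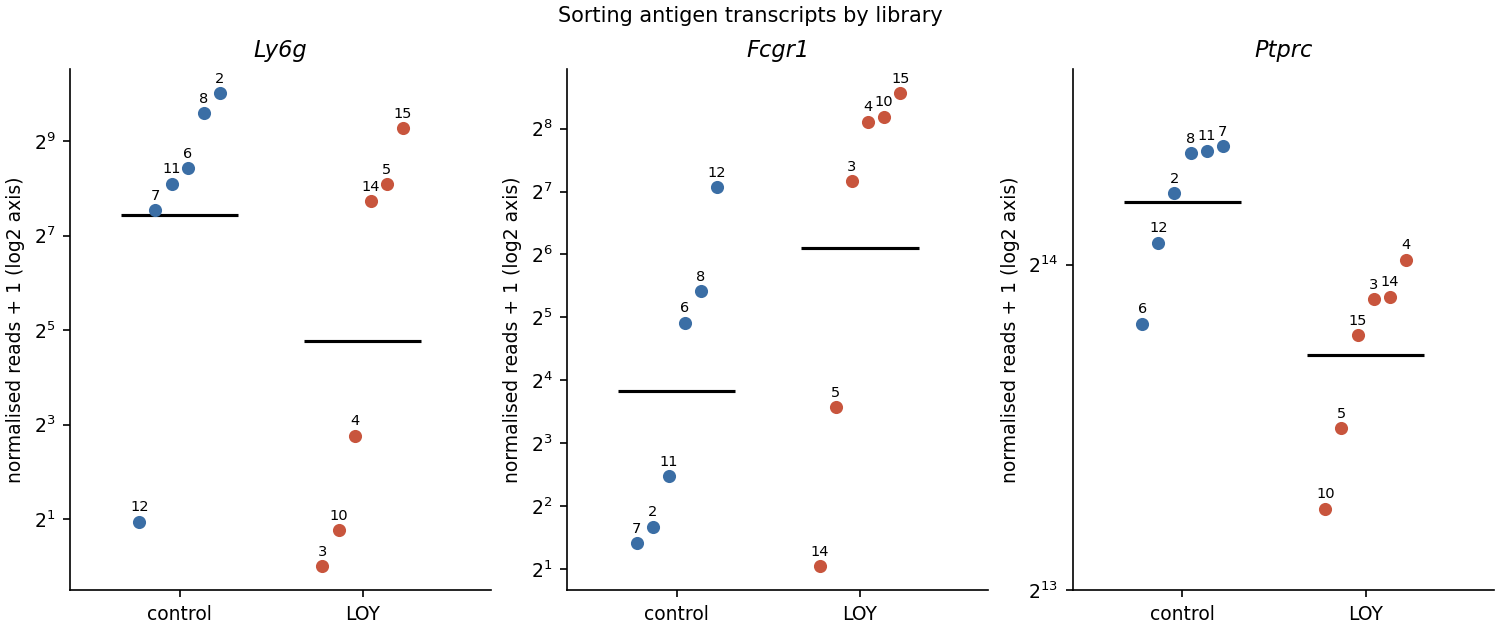
Normalised reads + 1 (log2 axes that differ between panels and do not start at 0) of Ly6g, Fcgr1 and Ptprc in 6 control (blue) and 6 LOY (red) libraries; each point is 1 library with its number, and bars are means of log2(normalised reads + 1). Control 12 and LOY 3, 4 and 10 lie at 5.82 normalised reads or less of Ly6g, Fcgr1 runs from 1.05 to 379, and Ptprc stays between 9744 and 21080.

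The first comparison asked whether the sorting antigens differed between the genotypes at the transcript level. None of the 3 genes passed an adjusted p of 0.05 in limma, where 0.0288% of 6951 genes did, 0.0144% higher and 0.0144% lower in the LOY libraries. None passed on the reads in DESeq2, where 3.12% of 9723 genes did, or in edgeR, where 0 of 7054 did, and the shares at an unadjusted p below 0.05 were 10.1% and 1.84%. The groups overlapped for all 3, and did not overlap for 0.201% of the genes tested in limma. Ly6g had a log2 difference, LOY minus control, of -2.66 (SE 1.98, 95% interval -6.90 to 1.58) with an adjusted p of 0.997 in limma. The two-sided exact permutation test over the 12 libraries gave p = 0.232. The interval spans a large decrease and a smaller increase. The difference ran from -3.96 without control 12 to -1.71 without LOY 3. With DESeq2 on the reads it was -1.24 (adjusted p = 0.999).

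A near-empty library was not particular to Ly6g among genes of its level. Of 1904 other genes whose mean lay within 1.5 times that of Ly6g, 17.7% were below 10 normalised reads in as many libraries or more, and the median gene was so in 2 libraries. The SD of log2(normalised reads + 1) was 3.80 for Ly6g against a median of 2.77 for these genes, and 11.9% of them had one as large or larger. No other gene of the table was below 10 in exactly the 4 libraries in which Ly6g was. The same held for the 4 libraries in which Fcgr1 was below 10, so this was not particular to Ly6g.

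**Figure D2:**
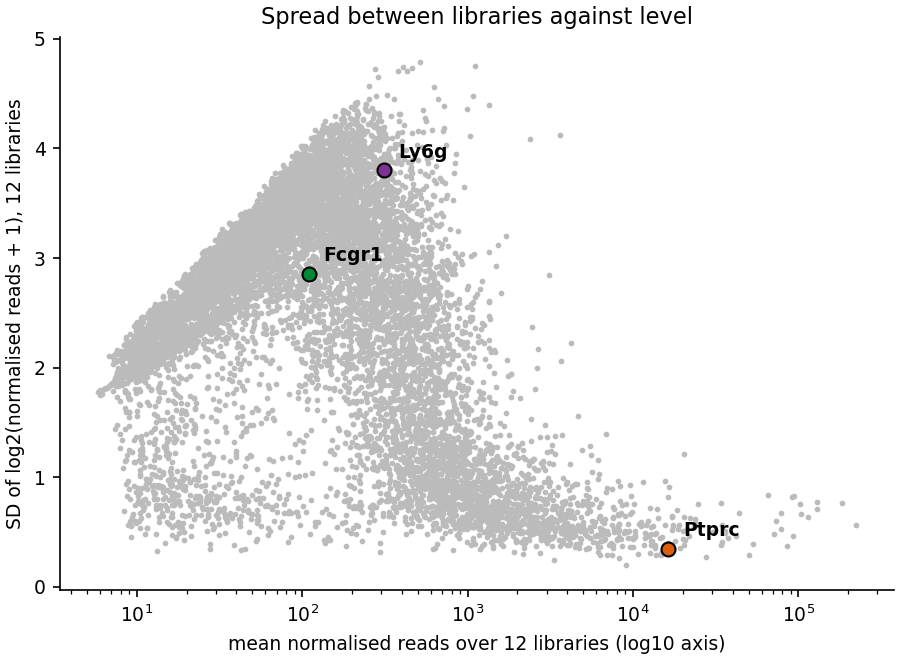
Each grey point is a gene of the table, with its mean normalised reads over 12 libraries (log10 axis) and the SD of its log2(normalised reads + 1) between libraries; Ly6g, Fcgr1 and Ptprc are marked. Ly6g, at an SD of 3.80, lies among the more variable genes of its level, Fcgr1 at 2.86 lies lower in its band, and Ptprc at 0.35 lies among the steady, abundant genes.

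Relatives of Ly6g were read in the 4 libraries that held little of it. Ly6c2, which encodes the Ly6C antigen of monocytes, stood at 315 in control 12, 987 in LOY 3, 2820 in LOY 4 and 1456 normalised reads in LOY 10. Ly6a stood between 896 and 1549 in these 4 libraries and at 1.98 in LOY 5, where Ly6g was read at 272. None of the 10 tested genes of the Ly6 list, Ly6g included, passed in limma, with 6 higher and 4 lower. Their median log2 difference was 0.41, against 0.008 over all genes tested. Ly6i had the smallest p of the list (log2 difference 3.38, SE 1.49, adjusted p = 0.997), at 26.9 ± 56.5 normalised reads for control and 219 ± 347 for LOY libraries (SD, n = 6 per group). LOY 4 held 917 of it. Ly6e, an interferon-inducible member, was steady at 9252 ± 3620 and 10802 ± 1522, and Plaur, the urokinase receptor, stood at 14244 ± 5876 and 18962 ± 9398 (SD, n = 6 each). Cd177, which encodes a GPI-anchored antigen of neutrophils, was read in every library, from 71.1 in LOY 15 to 1329 in control 2. Ly6c1 and Ly6d ranged down to 0.828 and 0, as Ly6g did. Gpihbp1, which encodes the GPI-anchored protein that holds lipoprotein lipase on capillaries, ranged from 0 to 879. Cd59a and Lynx1 were listed but not tested.

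Fcgr1 (ENSMUSG00000015947, GRCm38 chr3:96282909-96293969, minus strand), the gene of the antigen the sort excluded, was read in all 12 libraries, at 1 to 413 reads. In the control libraries it stood at 133 normalised reads in control 12, 41.8 in control 8, 29.2 in control 6, 4.55 in control 11, 2.18 in control 2 and 1.66 in control 7. In the LOY libraries it stood at 379 in LOY 15, 292 in LOY 10, 276 in LOY 4, 143 in LOY 3, 10.9 in LOY 5 and 1.05 in LOY 14. The 4 highest values were LOY libraries, and LOY 14 was the lowest of all, so the groups overlapped. The means were 35.4 ± 50.7 for control and 184 ± 157 for LOY libraries (SD, n = 6 per group). The log2 difference was 2.28 (SE 1.60, 95% interval -1.14 to 5.71), with an adjusted p of 0.997 in limma and an exact permutation p of 0.177. It ran from 1.79 without LOY 15 to 3.30 without LOY 14, and the sign held in each of the alternatives run. In the authors' deposited table the log2 fold change of Fcgr1 is 2.37 with an adjusted p of 0.553.

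Fcgr1 varied less than most genes of its level. Of 2103 genes within 1.5 times its mean, 83.3% had an SD of log2(normalised reads + 1) as large or larger than its 2.86. It was below 10 normalised reads in 4 libraries, and the median gene of that level was so in 6.

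The libraries with little Ly6g were not those with little Fcgr1. Fcgr1 was below 10 normalised reads in control 2, 7 and 11 and in LOY 14, all of which held 186 or more of Ly6g. The 4 libraries below 10 for Ly6g held 133 to 292 of Fcgr1. No library was below 10 for both, and control 6, control 8, LOY 5 and LOY 15 stood at 10 or more for both. Because Ly6g falls into separate sets of libraries, no correlation was tested over all 12. Over the 8 libraries at 186 or more, Ly6g and Fcgr1 had a Pearson r of 0.44 (exact permutation p = 0.273, 0.547 adjusted over the 6 relations examined) and a Spearman rho of 0.57 (exact permutation p = 0.151, adjusted 0.308). Without control 2 and control 8, the libraries farthest from the median of Ly6g, r was 0.98 over the other 6, so the value depends on which libraries enter.

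**Figure D3:**
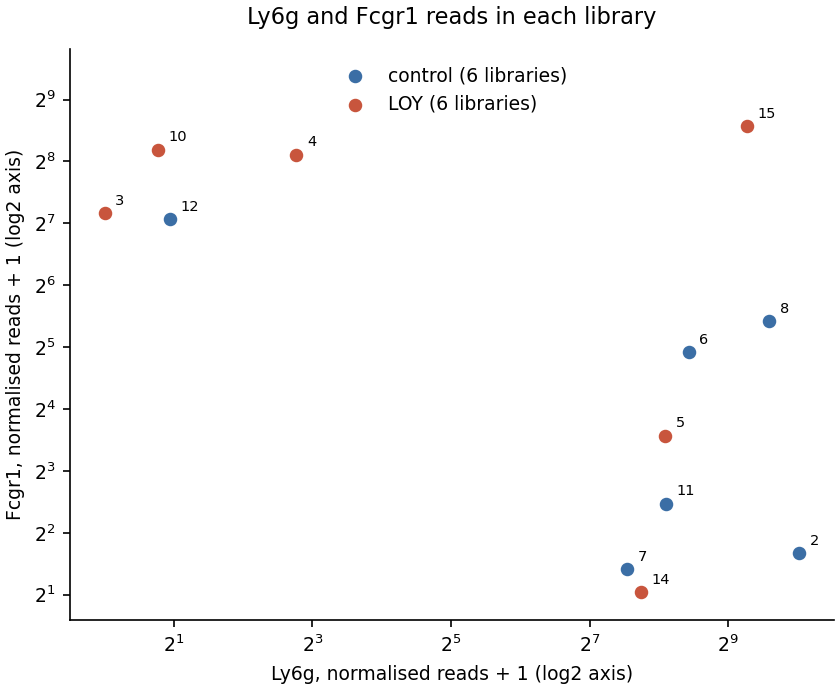
Normalised reads + 1 of Ly6g (x axis) and Fcgr1 (y axis) on log2 axes, with 1 point per library numbered as in the titles, control in blue and LOY in red. Control 12 and LOY 3, 4 and 10 form the upper left, with little Ly6g and 133 to 292 normalised reads of Fcgr1, and LOY 15 alone is high for both.

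Fcgr1 was the least abundant of the Fc gamma receptor genes. Per kilobase of exon its mean over the 12 libraries was 42.3 normalised reads, against 168 for Fcgr2b, the inhibitory receptor, 885 for Fcgr4, 4918 for Fcgr3, the low-affinity activating receptor, and 12741 for Fcer1g, the signalling chain that the activating receptors share. Fcgrt, which encodes the neonatal Fc receptor that recycles IgG inside cells, stood at 103. None of the 6 genes passed in limma, with 3 higher and 3 lower in the LOY libraries and a median log2 difference of -0.04. Fcgr4 came closest, at 1375 ± 833 normalised reads for control and 848 ± 704 for LOY libraries (SD, n = 6 per group; log2 difference -1.79, SE 1.15, adjusted p = 0.997). It stood at 4.94 in LOY 5 and at 174 or more elsewhere. Fcer1g, Fcgr3 and Fcgr2b were read in all 12 libraries and had log2 differences of -0.15 (SE 0.33), 0.06 (SE 0.41) and 0.48 (SE 0.70). Fcgrt had -1.43 (SE 2.03) and ranged from 0 to 725. Of the 15 genes that carry the signal of these receptors, all tested, 0 passed in limma and 7 were higher in the LOY libraries, with 0 also at an unadjusted p below 0.05. The smallest p-values belonged to Plcg2, a phospholipase (641 ± 467 against 1301 ± 722; log2 difference 1.14, SE 0.57), and Pik3r1, the regulatory subunit of phosphatidylinositol 3-kinase (1.64, SE 0.89; SD, n = 6 each).

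**Figure D4:**
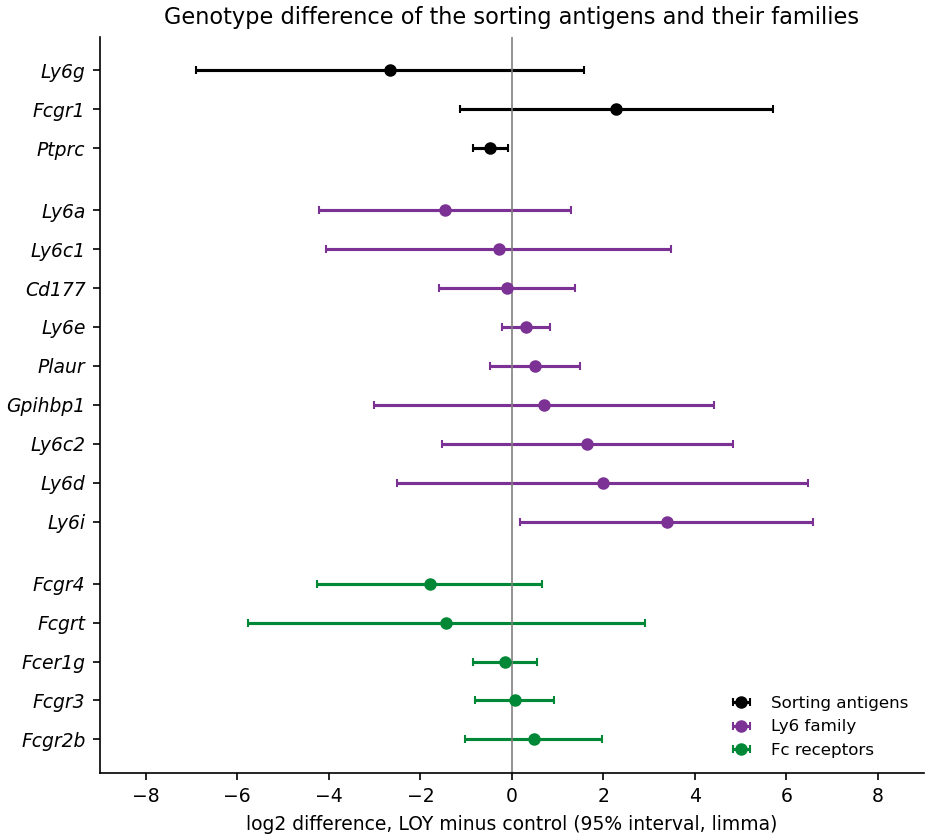
Log2 difference, LOY minus control, with its 95% interval from limma, for the 3 sorting antigens (black), the other 9 tested genes of the Ly6 list (purple) and the other 5 Fc receptor genes (green). The intervals of Ptprc and Ly6i leave out 0 before adjustment, and no gene shown passed after it.

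Macrophages are the heart cells for which CD64 is best known, and genes of a macrophage and monocyte list were read in all libraries. The summed level of its 24 listed genes, Fcgr1 included, ran from 27304 to 45526 normalised reads over the control group. It ran from 22010 to 60752 over the LOY group. Cd163 and Timd4, markers of resident macrophages, were looked for but are not among the genes of the deposited table. The most abundant members were Cd14, the lipopolysaccharide co-receptor, Apoe, the apolipoprotein, and Ctss, a lysosomal protease, and part of the list is also expressed by neutrophils. C1qc, a subunit of complement C1q made by macrophages, stood at 1007 ± 724 for control and 989 ± 1321 for LOY libraries (SD, n = 6 per group). It was 3322 in LOY 10 and 1813 in LOY 15, where Fcgr1 was high, but 55.8 in LOY 4, where Fcgr1 was 276, and 2323 in control 8, where Fcgr1 was 41.8. Adgre1, which encodes the macrophage antigen F4/80, had a log2 difference of -1.76 (SE 1.02), of opposite sign to Fcgr1. Of 19 tested genes of the list, Fcgr1 included, 6 were higher and 13 lower in the LOY libraries. Their median was -0.14, and 0 passed in limma. Fcgr1 and the mean log2 level of the other genes of the list had a Pearson r of 0.38 over 12 libraries (permutation p = 0.221, adjusted 0.547) and a Spearman rho of 0.44 (p = 0.154, adjusted 0.308). Without LOY 14 and control 7, r was -0.05. It was 0.15 within the 6 control and 0.78 within the 6 LOY libraries. The part of such cells in the Fcgr1 values was not tested, and in sorted bulk samples fewer cells of a type and less RNA per cell cannot be told apart.

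Ptprc (ENSMUSG00000026395, GRCm38 chr1:138062861-138175708, minus strand), the gene of CD45, was the steadiest and most abundant of the 3. In the control libraries it stood at 21080 normalised reads in control 7, 20878 in control 11, 20757 in control 8, 19063 in control 2, 17166 in control 12 and 14445 in control 6. In the LOY libraries it stood at 16558 in LOY 4, 15296 in LOY 14, 15220 in LOY 3, 14088 in LOY 15, 11560 in LOY 5 and 9744 in LOY 10. Between 11689 and 36739 reads lie behind each value, so counting error is small beside the 2.16-fold range over the libraries. The 5 highest values were controls, and control 6 lay among the LOY libraries. Its SD of log2(normalised reads + 1) was 0.35, and 93.4% of the 61 other genes within 1.5 times its mean had one as large or larger.

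Ptprc stood lower in the LOY libraries, at 13744 ± 2584 against 18898 ± 2646 normalised reads (SD, n = 6 each), a ratio of means of 0.727. The log2 difference was -0.47 (SE 0.18, 95% interval -0.85 to -0.09, not adjusted for the number of genes). It did not pass over all genes in limma (adjusted p = 0.997), where it ranked 99 of 6951 by p. The two-sided exact permutation test for this gene alone gave p = 0.0130, and 4.37% of the genes had an unadjusted limma p below 0.05. In the authors' deposited table the log2 fold change of Ptprc is -0.46, with an adjusted p of 0.380. The difference ran from -0.54 without control 6 to -0.38 without LOY 10, and it was -0.32 (unadjusted p = 0.141) after quantile normalization in limma.

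Reads of heart muscle genes were counted beside Ptprc. The 15 genes of a cardiomyocyte list had a summed level of 4114 to 8535 normalised reads over the control group and of 4429 to 63723 over the LOY group, with 14 of 15 higher and a median log2 difference of 1.67. Over all genes tested, 50.4% were higher in the LOY libraries. None of the 15 passed in limma, and 5 had an unadjusted p below 0.05, as had 4.37% of all genes tested. Actc1, the cardiac actin gene, and Myh6, the cardiac myosin gene, were among its most abundant members. LOY 10, the lowest library for Ptprc, had the highest sum, and LOY 5, the next lowest, had 4429, within the control range. LOY 3, 4, 14 and 15 had 14918, 11194, 12316 and 14875, each above every control library. The part of these reads in the difference of Ptprc was not tested.

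Ptprc is shared by all leukocytes, so markers of the other blood cells a CD45 gate could hold were counted beside it. Of 10 genes for T and NK cells, the table lists 2, Cd3d and Nkg7, which ran from 0 to 124 and from 0 to 316 normalised reads over the control group and from 0 to 222 and from 0 to 518 over the LOY group. Of 10 for eosinophils, basophils and mast cells, it lists Epx alone, at 173 in LOY 3 and at 0.828 or less elsewhere. All 10 B cell genes are listed, and their sum ran from 4344 to 15093 over the control group and from 3887 to 24110 over the LOY group, with Igkc, an immunoglobulin light chain gene, at 18312 in LOY 3. Cd74, the invariant chain of MHC class II, stood at 9402 ± 5802 for control and 9737 ± 6071 for LOY libraries (SD, n = 6 per group). None of the tested genes of the B cell and the MHC class II lists passed in limma (0 of 9 and 0 of 5), and 0 of them had an unadjusted p below 0.05. Of the granule list, 0 of 5 passed, with Lcn2, an iron-sequestering granule protein, at a log2 difference of -0.37 (SE 0.32).

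Genes known to work with CD45 showed no common direction. Of 17 tested genes of this list, Ptprc included, 9 were higher and 8 lower in the LOY libraries, the median was 0.06, and 0 passed in limma. Ptpre, another receptor tyrosine phosphatase, had the next smallest p after Ptprc, at 2462 ± 801 against 1539 ± 596 normalised reads (SD, n = 6 each; log2 difference -0.74, SE 0.37, adjusted p = 0.997). Csk, the kinase that opposes CD45 on Src kinases, had a log2 difference of 1.09 (SE 0.66), and Ptpn22, a phosphatase that binds Csk, had 2.67 (SE 2.05). Of 10 splicing regulators, several of which are known to act on the variable exons of Ptprc, 5 were higher and 5 lower and 0 passed in limma. Ptbp1 (134 ± 199 against 426 ± 247; log2 difference 3.43, SE 1.36) and Srsf1 (573 ± 579 against 164 ± 160; -2.31, SE 1.18) had the smallest p (SD, n = 6 each).

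Set against CD45 within each library, neither Ly6g nor Fcgr1 differed beyond the spread between libraries. The log2 ratio of Ly6g to Ptprc was -6.75 ± 3.26 for control and -8.95 ± 4.06 for LOY libraries (SD, n = 6 per group), and the difference of -2.19 had an exact permutation p of 0.379. The log2 ratio of Fcgr1 to Ptprc was -10.37 ± 2.42 for control and -7.62 ± 3.13 for LOY libraries (SD, n = 6 per group). This difference of 2.75 had an exact permutation p of 0.121, and without LOY 14 it was 3.80 at p = 0.0238. Per 1000 normalised reads of Ptprc, Fcgr1 ranged from 0.0687 in LOY 14 to 29.9 in LOY 10, and Ly6g from 0 in LOY 3 to 54.5 in control 2.

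Per kilobase of exon, the mean level was 891 ± 200 normalised reads for Ptprc, 329 ± 358 for Ly6g and 42.3 ± 52.3 for Fcgr1 (SD, n = 12). These means stood at percentiles 96.3, 91.1 and 59.6 of the 11896 genes with an annotated length. The length of Ptprc includes retained introns, 18313 bases in all, and with the longest annotated transcript its mean was 2843. This order held in 7 of the 12 libraries. In control 2, Ly6g stood above Ptprc, at 1103 against 1041 per kilobase. With the longest transcript as the length, Ptprc stood above Ly6g there, at 3321 against 1104. In control 12 and LOY 3, 4 and 10, Fcgr1 stood above Ly6g.

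The relation of Fcgr1 to Ptprc was negative but did not pass its test. Their Pearson r over 12 libraries was -0.45 (permutation p = 0.146, adjusted 0.547) and their Spearman rho -0.53 (p = 0.0791, adjusted 0.308). Without LOY 14 and control 7, r was -0.42, and it was -0.51 within the control and -0.09 within the LOY libraries. Ly6g and Ptprc, over the 8 libraries at 186 or more of Ly6g, had r = 0.15 (exact permutation p = 0.729, adjusted 0.729) and rho = -0.14 (exact permutation p = 0.752, adjusted 0.882), and r was -0.43 without control 2 and control 8. The mean log2 level of the mature neutrophil list had r = 0.21 with Ly6g over these 8 libraries (exact permutation p = 0.611, adjusted 0.729; rho = 0.07, exact permutation p = 0.882, adjusted 0.882). Without control 2 and control 8, that r was -0.05. With Ptprc over 12 libraries the list had r = 0.26 (permutation p = 0.423, adjusted 0.635) and rho = 0.23 (p = 0.472, adjusted 0.707), and r was 0.19 without LOY 10 and LOY 5. Within the groups, that r was -0.21 over the control and 0.19 over the LOY libraries. Of the 24 tested genes of this list, 6 were higher and 18 lower in the LOY libraries, with a median log2 difference of -0.08 and 0 past the threshold in limma. Stfa2l1 had the smallest p (log2 difference -0.67, SE 0.33), and Wfdc17 followed at -0.73 (SE 0.47).

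The genes most like each antigen were sought among the 6950 other genes that passed the value filter, by Spearman rho over the 12 libraries. They were picked as the highest of many and carry no test, and for Ly6g the rho spans both sets of libraries. Closest to Ptprc were Tgfbr2, the type II receptor of TGF-beta, and Cd84, a leukocyte adhesion receptor of the SLAM family, both at 0.88, then Nlrp12 at 0.86, Sap30bp at 0.85 and Nelfb at 0.84. Cd84 ranged from 1161 normalised reads in LOY 5 to 4868 in control 2. Closest to Ly6g were Ap1s2 at 0.84, Mrpl55, Atp6v1c1 and Atxn10 at 0.83 each, and Polr2i at 0.81. Ap1s2, an adaptor subunit of vesicle coats, was at 0.925 in control 12 but at 274 in LOY 3, where Ly6g had no reads. Closest to Fcgr1 were Cmc2 at 0.90, Ttpal at 0.86, Wdr20 at 0.85, and Mcee and Ltbp3 at 0.84 each. No macrophage list gene was among them. Over all genes compared, 1% had a rho above 0.70 with Ly6g, 0.65 with Fcgr1 and 0.67 with Ptprc.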

How the data were processed

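Reads were handled with STAR 2.5.2b, featureCounts (Subread 1.5.2), Trimmomatic 0.36 and bcl2fastq 2.17, with GRCm38 (mm10) as the build, per the submitters' processing notes. Per the labels' protocols, cDNA was made with a SMART-Seq v4 kit, which marks neither strand nor molecule, so PCR copies count as reads. The authors deposited signal values, read counts divided by 1 factor per library, beside their log2 fold change and p-value. Dividing each library's values by its smallest step gave whole reads (100% within a tolerance of 0.01), and these are the reads used here. The table holds no gene of very low mean. Symbols of 17 genes turned into dates and 8 blank ones came from GENCODE M21 (11896 identifiers matched), as did coordinates and lengths.

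limma 3.58.1 (trend, robust) was fitted to log2(normalised reads + 1) over 12 libraries, for 6951 genes at 10 or more normalised reads in at least 6 libraries. Adjusted p-values are Benjamini-Hochberg over these genes. Fold changes on this scale depend on the pseudocount where values are near 0. Alternatives were DESeq2 1.42.0 and edgeR 4.0.16 on the reads, other scalings, filters, weights and pseudocounts, and each library left out. The fit was run on simulated counts as a self-test, and no result here rests on it. The simulated spread between libraries was capped, so it is milder than the data for the most uneven genes. Intervals are those of limma and rest on the spread between libraries, while floors (3 reads) cover counting error only. Correlations used 100000 permutations, or all orders for 8 libraries. The members and gene lists were chosen with earlier results of these data known. Genes named from a list are those of smallest p or highest mean, and the genes named as most alike are the 5 of highest rho per antigen, passing over serial identifiers. Cxcr2 was named outside these rules, after its values were seen.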

Additional observations from a re-analysis of the deposited data

Results flagged for a closer look

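Control 12 lay far below the other control libraries for Ly6g. At 0.925 normalised reads against 186 to 1039 in the other 5, its gap to the nearest of them was 0.727 of the whole range of log2(normalised reads + 1) in the group, above Dixon's 95% critical value of 0.625 for 6 libraries. The log2 ratio of Ly6g to Ptprc set the same library apart, with a gap of 0.706 of the range. In the same library Ptprc stood at 17166 and Fcgr1, the highest of the control group, at 133 normalised reads. The LOY libraries were not set apart by this measure, since 3 of the 6 were low for Ly6g. Of 10 sets of 6 values examined, 2 were set apart in this way, and chance gives about 1 in 20. Both rest on the Ly6g value of control 12, so they are not separate cases.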

How the results depend on the processing

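The log2 differences of Ly6g, Fcgr1 and Ptprc kept their sign and stayed short of the threshold in all 9 other settings and with each library left out in turn. The ranges over the other settings were -3.17 to -1.21 for Ly6g, 1.96 to 2.48 for Fcgr1 and -0.47 to -0.32 for Ptprc. With a library left out they were -3.96 to -1.71, 1.79 to 3.30 and -0.54 to -0.38. The lowest adjusted p over these fits was 0.916 for Ly6g, 0.552 for Fcgr1 and 0.379 for Ptprc, the latter 2 in DESeq2. The number of genes past the threshold was 2 in limma and 303 in DESeq2. It was 0 in edgeR (130 genes at an unadjusted p below 0.05), 1 in limma with values scaled to the total of each library, 0 in limma with no filter (466 unadjusted) and 0 in limma with a mean of at least 50 (327 unadjusted). It ran from 0 to 4 in limma with a library left out. The ratio of Ly6g to Ptprc differed by -2.39 to -1.68 with other pseudocounts and by -3.47 to -1.21 with a library left out. That of Fcgr1 to Ptprc differed by 2.49 to 2.79 and by 2.24 to 3.80, the last without LOY 14 (exact permutation p = 0.0238; the cause was not tested). The order of the 3 genes per kilobase held in each alternative, and the ratio of Ly6g to Fcgr1, 7.79 from means, was 18.7 from medians. No paired analysis was possible because the groups share no replicate number. At 1 to 5 reads of Ly6g or 1 to 8 of Fcgr1, counting error limits the single values.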

Other observations

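Ly6G is held by a GPI anchor and is known to associate with the integrin CD11b/CD18, so genes of both were looked at. Itgb2, the gene of CD18, and Itgam, that of CD11b, were read in every library, also in the 4 with little Ly6g. Of the 20 listed genes of this list, 12 were tested, 6 were higher and 6 lower in the LOY libraries, and 0 passed in limma. Pgap2, which remodels GPI anchors, had the smallest p, at 140 ± 106 normalised reads for control and 481 ± 287 for LOY libraries (SD, n = 6 per group; log2 difference 2.13, SE 0.86, adjusted p = 0.997). Pigq, an enzyme of the first step of anchor synthesis, followed at 4.51 (SE 2.14), and Pigs, a subunit of the enzyme that attaches the anchor, at -2.71 (SE 1.60).

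Markers of other heart cells were present as well. Of 10 tested endothelial genes 7 were higher in the LOY libraries and of 5 tested fibroblast genes all 5 were, with median log2 differences of 1.16 and 2.34 and 0 past the threshold in limma. At an unadjusted p below 0.05 there were 2 endothelial genes and 1 fibroblast gene. Over all genes tested, 50.4% were higher in the LOY libraries and 4.37% had an unadjusted limma p below 0.05. Of 5 tested red cell and platelet genes 4 were lower (median -2.48), 0 of them past the threshold in limma and 0 at an unadjusted p below 0.05.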
